A study of Homo sapiens with 12 samples.

Results

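Expression of 10 genes linked to the RAS to ERK kinase cascade was followed after depletion of the deubiquitinase USP15 in chronic myeloid leukemia cells. FOS, FOSB, JUN, EGR1, MYC and IER3 are immediate early genes, and DUSP5, DUSP6, SPRY2 and SPRY4 encode feedback inhibitors. The 10 genes were chosen with earlier results of these data known. Their rows were taken by gene symbol, and all 10 were among the 23238 genes that the KBM7 table (26226 genes) and the K562 table (28328 genes) share. RNA-seq libraries were made 72 h after transfection with siUSP15, a pool of siRNAs against USP15, or with siCtrl, a non-targeting pool. There were 2 siUSP15 and 2 siCtrl libraries of KBM7 cells, grown in IMDM, and 4 siUSP15 and 4 siCtrl libraries of K562 cells, grown in RPMI medium. Both lines come from blast crisis of chronic myeloid leukemia. The K562 libraries fall into set 1 (replicates 1 and 2 of each siRNA) and set 2 (replicates 3 and 4), a division by replicate number that no label gives, and no source used here says what separates the sets. The raw count columns used here stand in a K562 table whose name speaks of batch correction. The column of K562 siUSP15 replicate 3 lacks a digit that the names of the other siUSP15 columns carry, and was matched through the description of its sample. With 1 pool against 1 control pool, loss of USP15 and other effects of the pool cannot be told apart. The labels do not say that replicates were separate cultures, so p-values measure only the spread between these libraries.

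ERK, the last kinase of the cascade, phosphorylates transcription factors bound at serum response elements, and immediate early genes are then transcribed within minutes without new protein synthesis. FOS, FOSB and JUN proteins pair to form the AP-1 transcription factor, and EGR1 is a zinc finger transcription factor. DUSP and Sprouty proteins switch the cascade off again, and their transcripts can follow ERK activity. In chronic myeloid leukemia the BCR-ABL1 kinase feeds this cascade. ERK activity itself was not measured in these data, so a change in RNA is not read as a change in ERK signaling.

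The upstream sequences of the immediate early transcription factor genes are shown because EGR1 and JUN changed with siUSP15 in K562 while FOS and FOSB differed most between the K562 sets. The RefSeq promoter table used here (GRCh38.p14) held entries for 7 of the 10 members, and IER3, DUSP5 and MYC are named only. Start sites are those of the promoter entries. By the gene spans given below, the JUN window lies wholly within its gene and the FOS window runs into its gene. Printed are the 250 bases before the start site, 5′ to 3′ on the gene's strand, with motif matches in capitals: EGR1 (chr5:138465229-138465478, + strand), FOS (chr14:75278578-75278827, + strand), FOSB (chr19:45467746-45467995, + strand) and JUN (chr1:58784048-58784297, - strand).
EGR1: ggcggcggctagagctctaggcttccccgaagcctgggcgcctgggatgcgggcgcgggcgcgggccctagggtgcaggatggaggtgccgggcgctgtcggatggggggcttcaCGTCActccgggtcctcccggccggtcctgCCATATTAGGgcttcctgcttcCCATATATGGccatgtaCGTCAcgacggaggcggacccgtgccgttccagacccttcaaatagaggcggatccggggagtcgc
FOS: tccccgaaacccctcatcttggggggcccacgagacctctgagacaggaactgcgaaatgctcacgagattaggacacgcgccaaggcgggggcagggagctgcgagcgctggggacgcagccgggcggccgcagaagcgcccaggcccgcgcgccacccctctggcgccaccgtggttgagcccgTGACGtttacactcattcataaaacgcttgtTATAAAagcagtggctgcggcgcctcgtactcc
FOSB: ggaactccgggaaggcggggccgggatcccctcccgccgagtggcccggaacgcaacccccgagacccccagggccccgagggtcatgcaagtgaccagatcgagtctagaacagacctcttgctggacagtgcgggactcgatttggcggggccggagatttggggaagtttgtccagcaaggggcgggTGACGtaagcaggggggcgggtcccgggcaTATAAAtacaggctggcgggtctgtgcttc
JUN: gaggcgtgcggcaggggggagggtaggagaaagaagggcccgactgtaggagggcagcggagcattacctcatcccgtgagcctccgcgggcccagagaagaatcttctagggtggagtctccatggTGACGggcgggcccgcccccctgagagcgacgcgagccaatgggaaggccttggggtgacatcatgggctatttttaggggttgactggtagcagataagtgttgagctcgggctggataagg
The motifs searched in these windows were the CArG box, which is the core of the serum response element and was searched as a palindrome, TGACG, a cAMP response element core, or CGTCA on the other strand, TGACGTCA, which contains that core, and TATAAA on the gene's strand. The EGR1 window held 2 CArG boxes, starting 105 and 83 bases before the start site, and 2 TGACG cores, at 135 and 66 bases. Among 35116 promoter entries, 1.16% held a CArG box and 0.0313% held 2 or more. TGACG, present in 21.2% of all windows, was found in 6 of the 7 members, at 64 bases in FOS, 60 in FOSB and 123 in JUN. TGACGTCA, in 1.65% of windows, was found in none of the 7. TATAAA, present in 6.8% of windows, lay at 33 bases in FOS and 30 bases in FOSB. A match describes letters in the window only. Sequence farther upstream was not searched, so a window without a CArG box does not show that the gene lacks a serum response element.

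USP15 itself checked the labels. Its normalised counts (CPM, counts scaled to library size, scaled within each cell line's table) were 113 and 114 in KBM7 siUSP15 libraries, against 209.8 and 216 in KBM7 siCtrl libraries. In K562 set 1 they were 116 and 134 with siUSP15 and 269 and 275 with siCtrl, and in set 2 they were 191 and 197 with siUSP15 and 343 and 330.01 with siCtrl. The siUSP15 libraries were lowest in every comparison, with log2 fold changes of -0.91 in KBM7, -1.12 in set 1 and -0.79 in set 2. The set 1 effect was the larger (difference -0.32, SE 0.08, edgeR adjusted p = 0.0128), a difference that leaving out siCtrl replicate 1, 2 or 4 took to adjusted p = 0.0583, 0.0615 and 0.0513 (0.000916 to 0.0615 over all alternatives). Total counts were 23450607 to 29441118 per library in KBM7 and 23020401 to 43566543 in K562. The erythroid factor GATA1 stood at 18.5 to 33.2 CPM in KBM7 and 215 to 270 CPM in K562 libraries. The myeloid genes CD33 and SPI1 stood at 79.2 to 98.1 and 94.2 to 121 CPM in KBM7, and at 7.66 to 17.0 and 13.8 to 37.6 CPM in K562. In KBM7, MPO stood at 5.93 to 19.8, PRTN3 at 6.48 to 21.1 and CEBPA at 21.8 to 38.7 CPM. In K562 these were at most 0.762, 0.593 and 0.583 CPM. Of the same myeloid list, ELANE (at most 0.380 CPM in KBM7) and CSF3R (0.103 to 0.549 CPM in KBM7, 0.182 to 0.804 CPM in K562) were near 0. In bulk RNA, fewer expressing cells and less RNA per cell cannot be told apart.

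In KBM7, 5 of the 10 genes fell with siUSP15 and none rose: IER3, EGR1, SPRY4, DUSP5 and MYC. Over all 14980 genes tested, 15.8% fell and 13.2% rose. Calls here and throughout are those of edgeR's quasi-likelihood test below 0.05 after Benjamini-Hochberg adjustment. The median log2 fold change of the 10 genes was -0.30, beside 0.00067 over all genes, and 9 of the 10 values were below 0. Because the 10 genes were chosen with earlier results known, these comparisons with all genes are descriptive only. The siUSP15 and siCtrl libraries did not overlap for 8 of the 10 genes, 7 lower and 1 higher in siUSP15. With 2 libraries against 2, the libraries of 33.6% of all genes tested were apart with siUSP15 lower and of 32.9% with siUSP15 higher.

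In K562, 2 of the 9 genes tested fell over both sets, EGR1 and JUN, and none rose. The background there was 8.90% lower and 6.88% higher among 13731 genes, and the median of the 9 genes was -0.15 against 0.00099 over all genes. Within set 1, JUN and EGR1 fell and MYC rose, against 18.7% of all genes lower and 18.0% higher. Within set 2, JUN and EGR1 fell and none rose, against 1.25% of all genes lower and 1.19% higher. DUSP6 was not tested in K562, where its counts were too low. An exact permutation test of siRNA labels within sets, over 36 arrangements, gave p = 0.0556 for JUN and for EGR1, the smallest it can give.

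**Figure D1:**
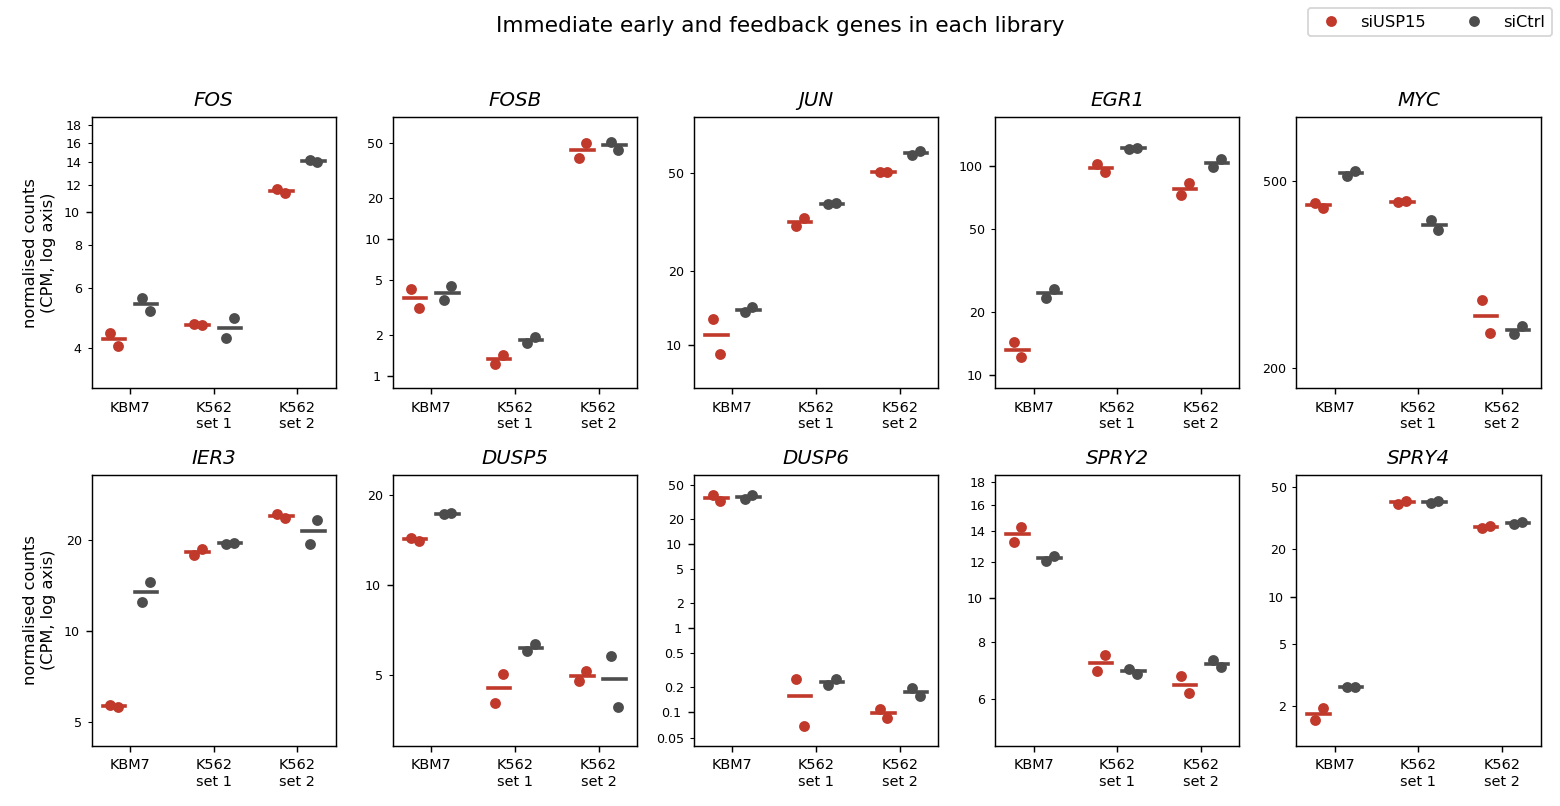
Normalised counts (CPM, log axis) of the 10 genes in each of the 12 libraries, with siUSP15 (red) left of siCtrl (grey) in KBM7, K562 set 1 and K562 set 2; points are libraries and bars are group means. EGR1 was lower with siUSP15 in all of KBM7, set 1 and set 2, IER3 lies far apart in KBM7 alone (5.71 and 5.62 CPM with siUSP15 against 12.4 and 14.5 CPM with siCtrl), and FOSB lies at 1.23 to 1.92 CPM in set 1 but 39.0 to 51.3 CPM in set 2.

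EGR1 (ENSG00000120738, chr5:138465490-138469315 in the files), a transcription factor induced through serum response elements, moved the same way in both lines. It had 14.4 and 12.2 CPM in KBM7 siUSP15 libraries, against 23.4 and 25.8 CPM in KBM7 siCtrl libraries. In K562 set 1 it had 102 and 94.1 CPM with siUSP15, against 121 and 122 CPM with siCtrl. In set 2 it had 72.4 and 83.1 CPM with siUSP15, against 99.4 and 108 CPM with siCtrl. Within KBM7 and within each set every siUSP15 library was below every siCtrl library, while pooled over sets the siRNA groups overlapped. The log2 fold change was -0.88 in KBM7 (SE 0.10, adjusted p = 4.41e-05), -0.31 in set 1 (SE 0.06, adjusted p = 0.000691) and -0.42 in set 2 (SE 0.06, adjusted p = 0.00259). Over both K562 sets it was -0.36 (SE 0.05, 95% interval -0.47 to -0.25, adjusted p = 0.00262). Without siCtrl replicate 4 the set 2 value was -0.36 with adjusted p = 0.0501 (6.78e-13 to 0.0501 over all alternatives), whereas the KBM7, set 1 and both-set calls held in every leave-out.

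JUN (ENSG00000177606, chr1:58780788-58784327), the AP-1 subunit that also pairs with itself, fell in K562. It had 30.4 and 32.9 CPM in set 1 siUSP15 libraries and 37.3 and 37.6 CPM in set 1 siCtrl libraries. Set 2 had 50.4 CPM in both siUSP15 libraries and 58.7 and 61.1 CPM in siCtrl libraries. The groups did not overlap in either set, and the log2 fold changes were -0.24 in set 1 (SE 0.06, adjusted p = 0.00345) and -0.25 in set 2 (SE 0.05, adjusted p = 0.0178). The set 2 call was lost without any 1 of its 4 libraries, at adjusted p = 0.0559 without siUSP15 replicate 3, 0.110 without siUSP15 replicate 4, 0.114 without siCtrl replicate 3 and 0.143 without siCtrl replicate 4, with a range of 0.00177 to 0.143 over all alternatives. Over both sets JUN was at -0.24 (SE 0.04, adjusted p = 0.00427) and stayed called in each leave-out.

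In KBM7, JUN had 12.8 and 9.20 CPM with siUSP15, against 13.6 and 14.2 CPM with siCtrl. One siUSP15 library lay close to the controls and the other well below, and the log2 fold change of -0.32 (SE 0.13) did not pass the test (adjusted p = 0.0897). Leaving out siUSP15 replicate 1 gave -0.59 at adjusted p = 0.000369, and the joint fit over all 12 libraries gave -0.31 at adjusted p = 0.0266, with 0.000369 to 0.484 over all alternatives.

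FOS (ENSG00000170345, chr14:75278774-75282230), the main AP-1 partner of JUN, did not pass the test in any siRNA comparison. It had 4.41 and 4.05 CPM in KBM7 siUSP15 libraries, against 5.62 and 5.12 CPM in KBM7 siCtrl libraries, from 96 to 163 counts. In K562 set 1 it had 4.69 and 4.67 CPM with siUSP15 and 4.28 and 4.87 CPM with siCtrl, and in set 2 it had 11.7 and 11.3 CPM with siUSP15 and 14.3 and 14.1 CPM with siCtrl. The groups were apart in KBM7 and set 2 and overlapped in set 1. Log2 fold changes were -0.34 in KBM7 (adjusted p = 0.0874), 0.03 in set 1 (adjusted p = 0.872) and -0.29 in set 2 (adjusted p = 0.116), and the set 1 effect minus the set 2 effect was 0.33 (95% interval -0.0037 to 0.66).

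FOSB (ENSG00000125740, chr19:45467995-45475179), a FOS relative that is strongly inducible, was likewise not called for siRNA. It had 4.34 and 3.12 CPM in KBM7 siUSP15 libraries and 3.62 and 4.53 CPM in KBM7 siCtrl libraries, which overlapped. In K562 it had 1.23 and 1.44 CPM with siUSP15 against 1.74 and 1.92 CPM with siCtrl in set 1, and 39.0 and 50.1 CPM with siUSP15 against 51.3 and 44.8 CPM with siCtrl in set 2. The set 1 libraries held only 30 to 63 FOSB counts, and the set 1 interval reached from -1.06 to 0.21. Over both sets the value was -0.15 (adjusted p = 0.320); without siUSP15 replicate 4 it was -0.32 with adjusted p = 0.0301 (0.0301 to 0.985 over all alternatives).

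MYC (ENSG00000136997, chromosome 8), the growth-promoting transcription factor whose protein ERK stabilises, fell in KBM7 and rose in K562 set 1. It had 449 and 438 CPM in KBM7 siUSP15 libraries, against 512 and 525 CPM in KBM7 siCtrl libraries. It had 450.4 and 453 CPM in K562 set 1 siUSP15 libraries, against 413 and 393 CPM in set 1 siCtrl libraries. Set 2 had 279 and 237 CPM with siUSP15 and 236 and 246 CPM with siCtrl, and there the groups overlapped. The log2 fold change was -0.23 in KBM7 (SE 0.04, adjusted p = 0.00194) and 0.16 in set 1 (SE 0.05, adjusted p = 0.0277). The KBM7 call held in every leave-out. The set 1 call did not hold without siCtrl replicate 1, siCtrl replicate 2 or siUSP15 replicate 2 (adjusted p = 0.0570, 0.198 and 0.0999) nor in DESeq2 (adjusted p = 0.131), with 2.61e-05 to 0.198 over all alternatives. Over both K562 sets the log2 fold change of 0.13 (SE 0.05) was not called (adjusted p = 0.0751), but passed without siUSP15 replicate 4 (0.19, adjusted p = 0.00568, and 0.00568 to 0.906 over all alternatives).

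IER3 (ENSG00000137331, chr6:30743199-30744554), a short-lived stress response protein that modulates ERK signaling and apoptosis, had the largest change of the 10 genes in KBM7. It had 5.71 and 5.62 CPM in KBM7 siUSP15 libraries, from 163 and 133 counts, against 12.4 and 14.5 CPM in KBM7 siCtrl libraries, from 361 and 342 counts. Both siUSP15 libraries lay far below both controls, at 42.1% of the siCtrl mean. The log2 fold change was -1.24 (SE 0.12, 95% interval -1.50 to -0.98, adjusted p = 1.69e-05), and between -1.35 and -1.13 in the leave-outs.

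In K562, IER3 had 17.9 and 18.7 CPM in set 1 siUSP15 libraries and 19.4 and 19.6 CPM in set 1 siCtrl libraries. In set 2 it had 24.4 and 23.6 CPM with siUSP15 and 19.5 and 23.3 CPM with siCtrl. The siUSP15 libraries were thus below the controls in set 1 and above them in set 2, but neither value was called (-0.09, adjusted p = 0.446; 0.17, adjusted p = 0.302). The difference between the sets was -0.25 (SE 0.12, adjusted p = 0.158), and -0.39 with adjusted p = 0.0493 without siCtrl replicate 4 (0.0493 to 0.541 over all alternatives).

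DUSP5 (ENSG00000138166, chr10:110497838-110511544) encodes a nuclear phosphatase that inactivates ERK. It had 14.4 and 14.1 CPM in KBM7 siUSP15 libraries, against 17.3 and 17.4 CPM in KBM7 siCtrl libraries. The groups were apart with little spread in each, and DUSP5 fell by 0.28 on the log2 scale (SE 0.08, adjusted p = 0.0242). The call was lost without siCtrl replicate 1 (adjusted p = 0.111) or siCtrl replicate 2 (0.113), in DESeq2 (0.151) and in the joint fit over 12 libraries (0.0601), and the adjusted p ranged from 0.0233 to 0.151 over all alternatives.

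In K562, DUSP5 had 4.03 and 5.06 CPM in set 1 siUSP15 libraries, against 6.01 and 6.37 CPM in set 1 siCtrl libraries. In set 2 it had 4.79 and 5.18 CPM with siUSP15 and 5.81 and 3.92 CPM with siCtrl. Set 1 groups were apart and set 2 groups overlapped. The set 1 value of -0.42 (SE 0.16) was not called (adjusted p = 0.0592); it passed without siUSP15 replicate 2 (-0.62, adjusted p = 0.0438), without siCtrl replicate 3 or 4 (adjusted p = 0.0339 and 0.0333), and when set 1 was fitted alone (0.0450), with 0.0333 to 0.236 over all alternatives.

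DUSP6 (ENSG00000139318, chr12:89347232-89353271), the cytoplasmic ERK phosphatase, was present in KBM7 and near absent in K562. It had 38.4 and 32.4 CPM in KBM7 siUSP15 libraries and 33.8 and 38.5 CPM in KBM7 siCtrl libraries, from 768 to 1098 counts. K562 libraries held 2 to 6 counts each (0.07 to 0.25 CPM), too few to test. The KBM7 groups overlapped fully, with a log2 fold change of -0.02 and a 95% interval of -0.21 to 0.17.

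SPRY2 (ENSG00000136158, chr13:80335976-80340951), a Sprouty adaptor that restrains RAS activation downstream of receptors, did not pass the test in any siRNA comparison. It had 13.3 and 14.3 CPM in KBM7 siUSP15 libraries and 12.1 and 12.4 CPM in KBM7 siCtrl libraries, the one member whose KBM7 siUSP15 libraries were both above the controls. In K562 it stayed between 6.16 and 7.48 CPM with siUSP15 and between 6.79 and 7.29 CPM with siCtrl. The log2 fold changes were 0.18 in KBM7 (95% interval -0.03 to 0.38, adjusted p = 0.181) and -0.04 over both K562 sets (95% interval -0.22 to 0.15).

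SPRY4 (ENSG00000187678, chr5:142310427-142326455), a second Sprouty adaptor, was low in KBM7 and fell there. It had 1.65 and 1.94 CPM in KBM7 siUSP15 libraries, against 2.65 and 2.67 CPM in KBM7 siCtrl libraries, from 46 to 77 counts. The groups were apart, and the log2 fold change was -0.58 (SE 0.19, adjusted p = 0.0437). This call rested on each of siCtrl replicate 1, siCtrl replicate 2 and siUSP15 replicate 1, without which the adjusted p was 0.161, 0.136 and 0.232, and DESeq2 gave 0.288, with 0.0133 the lowest over all alternatives. In K562 it had 39.0 and 40.4 CPM with siUSP15 against 39.5 and 40.6 CPM with siCtrl in set 1, and 27.1 and 28.1 CPM with siUSP15 against 29.1 and 29.9 CPM with siCtrl in set 2. Set 2 groups were apart, but the both-set value was -0.05 (95% interval -0.14 to 0.04).

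Of the 10 genes, 5 (FOSB, MYC, IER3, DUSP6 and SPRY4) overlap an annotated gene on the other strand, and the sources used here do not say whether counting used strand. For MYC the partner CASC11 had at most 7 counts in any library, and HCG20, a partner of IER3, at most 14. IER3-AS1, which also overlaps IER3, and SPRY4-AS1, which overlaps SPRY4, were looked for by name and had no counts to use. The other partners were not analysed here, apart from ERCC1 beside FOSB.

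**Figure D2:**
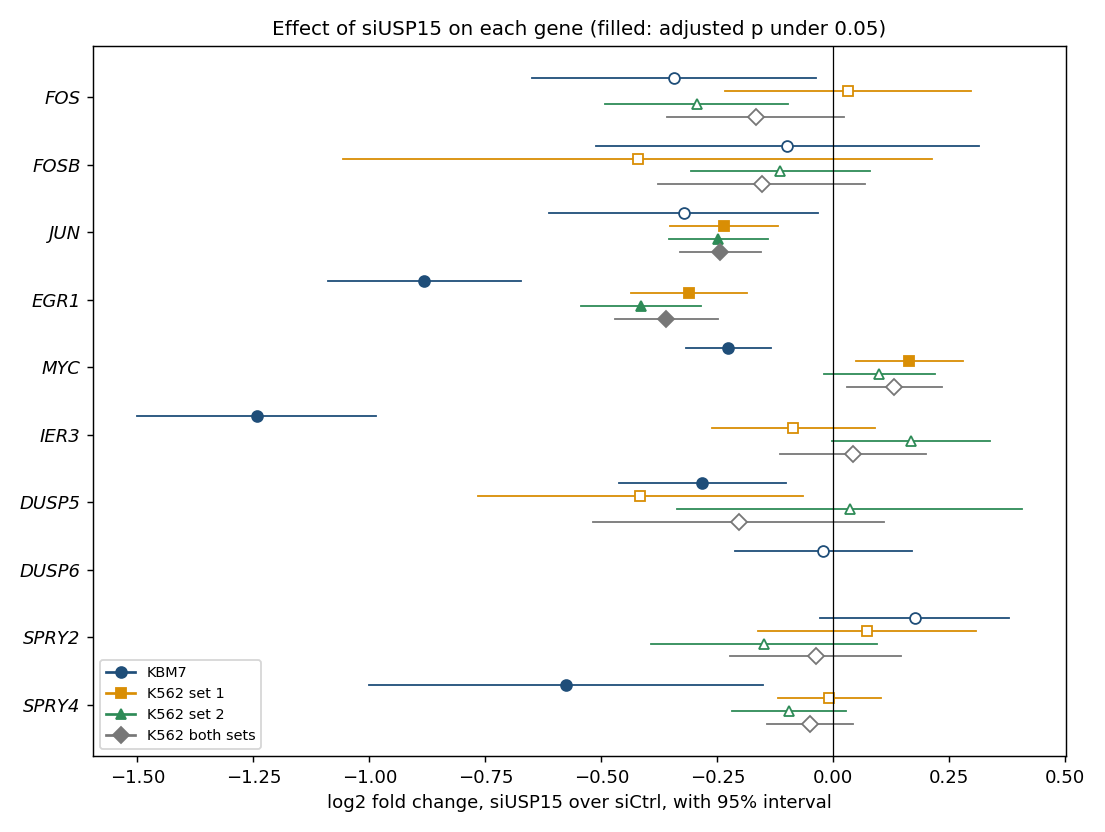
Log2 fold change of siUSP15 over siCtrl with its 95% interval for each gene, in KBM7, K562 set 1, K562 set 2 and both K562 sets; filled symbols passed an adjusted p under 0.05. IER3 (-1.24) and EGR1 (-0.88) in KBM7 lie farthest from 0, the 3 K562 values of EGR1 and of JUN are filled, and MYC lies below 0 in KBM7 and above 0 in K562.

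Whether the lines differed was tested directly as the KBM7 effect minus the mean K562 effect. In all, 4 of the 10 genes were lower in this difference and none higher, among 12.6% of 15833 genes lower and 10.6% higher: IER3 (-1.28, SE 0.13, adjusted p = 7.19e-08), SPRY4 (-0.52, SE 0.18, adjusted p = 0.0338), EGR1 (-0.51, SE 0.10, adjusted p = 0.000509) and MYC (-0.35, SE 0.07, adjusted p = 0.000284). The EGR1 decrease was thus larger in KBM7, while MYC stood at -0.23 in KBM7 and 0.13 over both K562 sets. The IER3, EGR1 and MYC differences held in all 12 leave-outs. The SPRY4 difference did not hold without KBM7 siCtrl replicate 1 (adjusted p = 0.118), KBM7 siCtrl replicate 2 (0.0909) or KBM7 siUSP15 replicate 1 (0.271), with 0.0276 to 0.271 over all alternatives. JUN did not differ by the test (-0.07, 95% interval -0.31 to 0.17), though it was called at -0.35 (adjusted p = 0.0435, and 0.0435 to 0.903 over all alternatives) without KBM7 siUSP15 replicate 1. DUSP6 passed the count filter of this joint fit, but its K562 side rests on 2 to 6 counts per library. Its difference of 0.77 (95% interval -0.33 to 1.88) is therefore poorly measured. The lines were counted in separate tables, so line and processing cannot be told apart.

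The effect of siUSP15 was also compared between the K562 sets. None of the 9 genes differed in edgeR's test (1 at an unadjusted p under 0.05, and none in DESeq2), where 6.08% of all genes were lower and 6.91% higher in set 1 minus set 2. The interval of that difference was -0.08 to 0.28 for EGR1 and -0.15 to 0.17 for JUN.

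More of the 9 genes differed between the K562 sets than between the siRNAs, a comparison chosen after the data had been seen. The same held over all 13731 genes tested, with 7737 called between the sets and 2167 between the siRNAs. In set 2 against set 1, with siRNA in the model, 4 of 9 genes were higher (FOSB, FOS, JUN and IER3) and 3 were lower (MYC, SPRY4 and EGR1), where 26.9% of all genes were higher and 29.4% lower. FOSB had 39.0 to 51.3 CPM in the 4 set 2 libraries and 1.23 to 1.92 CPM in the 4 set 1 libraries, a 29.4-fold difference in the fit (log2 4.88, SE 0.12, adjusted p = 6.71e-10). No set 2 library came near any set 1 library, and the difference held within siUSP15 libraries (5.02) and within siCtrl libraries (4.71). ERCC1, which overlaps FOSB on the other strand, differed the other way (-0.32, SE 0.05).

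FOS followed with 11.3 to 14.3 CPM in set 2 and 4.28 to 4.87 CPM in set 1 (log2 1.46, SE 0.09), and JUN with 50.4 to 61.1 CPM in set 2 and 30.4 to 37.6 CPM in set 1 (log2 0.67, SE 0.04). Each set 2 library was above every set 1 library for these 3 genes, as it was for 21.7% of all genes tested, and below for 23.2%. The other AP-1 subunits went in both directions, 6 of 11 higher and 3 lower in set 2, among them ATF3 (0.78), BATF2 (-2.02) and BATF (-1.68). MYC had 236 to 279 CPM in set 2 and 393 to 453 CPM in set 1 (-0.78, SE 0.05), SPRY4 was at -0.48 (SE 0.04) and EGR1 at -0.28 (SE 0.05). IER3 was higher by 0.27 (SE 0.07, adjusted p = 0.00802), but not within siCtrl libraries alone (0.13, adjusted p = 0.183). The share of counts from the mitochondrially encoded genes was 2.91% to 2.96% in set 2 and 4.34% to 4.94% in set 1, and 12 of the 13 genes were lower in set 2. Its part in the set difference was not tested.

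**Figure D3:**
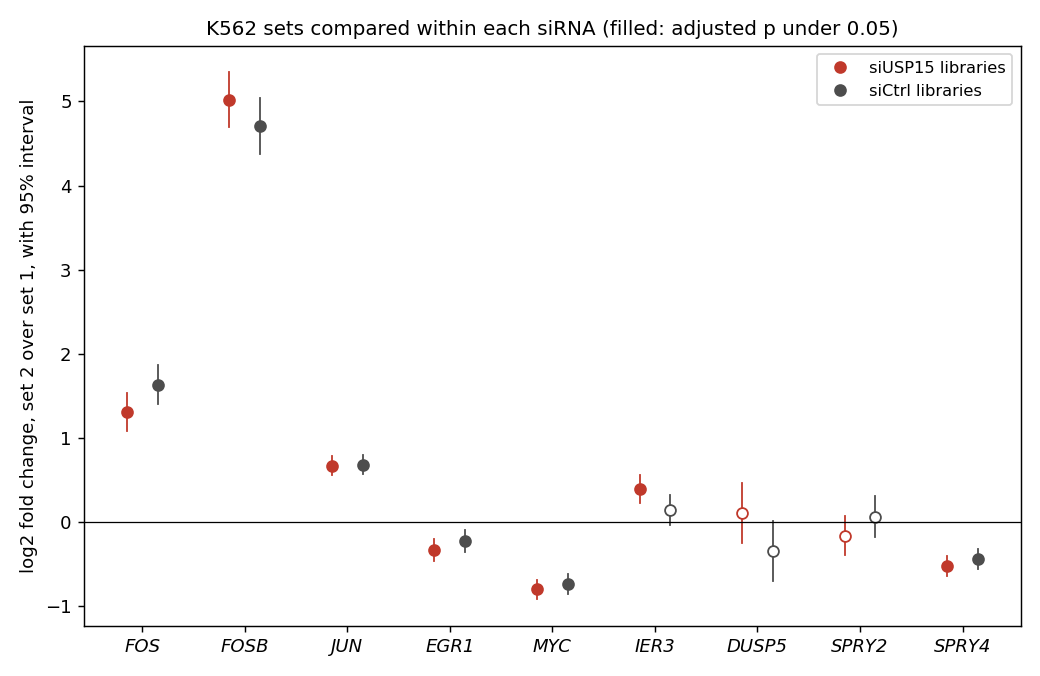
Log2 fold change of K562 set 2 over set 1 with its 95% interval, for the 9 genes tested, within siUSP15 libraries (red, left) and within siCtrl libraries (grey, right); filled points passed an adjusted p under 0.05. FOSB stands at 5.02 within siUSP15 and 4.71 within siCtrl libraries, FOS at 1.30 within siUSP15 and 1.63 within siCtrl, and MYC at -0.81 within siUSP15 and -0.74 within siCtrl.

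Across the 8 K562 libraries, the genes whose log2 CPM followed FOS most closely among 9284 genes were SYF2 (Pearson r = 0.999), RAD21 (0.998) and NASP (0.998). For EGR1 they were ST3GAL3 (0.989), ITFG1 (0.977) and MECR (0.976), and for SPRY4 they were PEX6 (0.996), FAM78A (0.993) and BTN2A1 (0.991). These libraries share the set difference, so the values describe these 8 libraries only.

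Genes related to the 10 were counted in lists chosen by role, with earlier results of these data known. The background was 13.2% of all genes higher and 15.8% lower in KBM7, and 6.88% higher and 8.90% lower over both K562 sets. Among the other AP-1 subunits, 2 of 11 rose and 4 fell in KBM7, and 0 rose and 1 fell in K562 over both sets. JUND, an AP-1 subunit made in unstimulated cells, fell in KBM7 to 58.1 and 51.8 CPM with siUSP15, against 75.6 and 79.0 CPM with siCtrl (-0.49, SE 0.06, adjusted p = 0.000111), and was at -0.08 in K562 (adjusted p = 0.305). BATF2, of the BATF family, is 1 of the 2 counted as rising in KBM7, on very few reads. It had 0.560 and 0.887 CPM in KBM7 siUSP15 libraries against 0.138 and 0.0423 CPM in KBM7 siCtrl libraries. It passed the count filter only through the siUSP15 libraries, where it was high, so the filter favoured this call. ATF3, a stress-induced member, rose in KBM7 and fell in K562. It had 21.6 and 17.5 CPM in KBM7 siUSP15 libraries, against 14.9 and 13.7 CPM in KBM7 siCtrl libraries (0.45, SE 0.11, adjusted p = 0.00745). In K562 it was lower with siUSP15 in each set and fell by 0.51 on the log2 scale (SE 0.08, adjusted p = 0.00394), more in set 1 than in set 2 (-0.72 in set 1, -0.34 in set 2, difference -0.39, adjusted p = 0.0341), and the difference between lines was 0.99 (SE 0.11, adjusted p = 7.21e-07).

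The other immediate early genes split in both directions, 8 higher and 10 lower of 32 in KBM7 and 2 higher and 6 lower of 27 in K562. In KBM7, ARC, known from neurons, had 5.29 and 5.87 CPM with siUSP15 against 10.9 and 11.9 CPM with siCtrl (-1.03, adjusted p = 6.23e-05), and NR4A3, an orphan nuclear receptor, had 4.13 and 3.67 CPM with siUSP15 against 1.62 and 1.82 CPM with siCtrl (1.19, adjusted p = 0.000535). IER2 fell in both lines, by 0.31 in KBM7 (adjusted p = 0.00124) and by 0.15 in K562 (adjusted p = 0.0118), as did PPP1R15A, a stress-induced phosphatase subunit, by 0.33 (adjusted p = 0.000478) and 0.13 (adjusted p = 0.0322). In K562, MCL1, an anti-apoptotic protein, fell by 0.20 (adjusted p = 0.00274) and ZFP36L1, which marks mRNAs for decay, rose (0.30, adjusted p = 0.00807).

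Among the other feedback genes and ERK targets, 1 of 19 rose and 6 fell in KBM7, with a median of -0.19, and 0 of 16 rose and 3 fell in K562, with a median of -0.01. EPHA2, a receptor kinase, had 2.31 and 2.41 CPM in KBM7 siUSP15 libraries against 5.48 and 6.61 CPM in KBM7 siCtrl libraries (-1.35, SE 0.16, adjusted p = 0.000105). PHLDA1 (-0.83, adjusted p = 6.84e-05), and the phosphatases DUSP4 (-0.70, adjusted p = 0.00187) and DUSP10 (-0.39, adjusted p = 0.00465), also fell in KBM7. In K562, CCND1, the cyclin that drives entry into S phase, fell by 0.63 over both sets (SE 0.11, adjusted p = 0.00458). It fell in set 1 (-0.87, adjusted p = 1.65e-06), was at -0.29 in set 2 without passing the test (adjusted p = 0.168), and the sets differed (-0.57, adjusted p = 0.0135). The ETS factor ETV5 fell by 0.22 in K562 (adjusted p = 0.00994). ETV4, its relative, rose in KBM7 (0.19, adjusted p = 0.0283) and fell in K562 (-0.27, adjusted p = 0.00394), with a line difference of 0.46 (adjusted p = 1.75e-05).

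In the RAS to ERK cascade itself, 1 of 24 genes rose and 7 fell in KBM7 (all genes 13.2% and 15.8%), and 1 rose and 4 fell in K562 (all genes 6.88% and 8.90%). NRAS, one of the RAS GTPases, fell to 152 and 149 CPM in KBM7 siUSP15 libraries, against 170 and 161 CPM in KBM7 siCtrl libraries (-0.14, adjusted p = 0.0441), and by 0.37 in K562 (SE 0.05, adjusted p = 0.00187). SOS1, the exchange factor that loads RAS with GTP, fell in KBM7 (-0.39, adjusted p = 0.00024) and was at 0.03 in K562 (adjusted p = 0.685). RASA3 and PEA15 fell in each line, by 0.26 and 0.24 in KBM7 and by 0.16 and 0.19 in K562 over both sets. Within set 2 neither was called (edgeR adjusted p = 0.265 for RASA3 and 0.231 for PEA15).

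Of the kinases and factors below ERK, 3 of 16 rose and 5 fell in KBM7, and none of 14 was called in K562 over both sets (edgeR, 5 at an unadjusted p under 0.05). ETS2, an ERK-phosphorylated ETS factor, fell in KBM7 (-0.80, SE 0.06, adjusted p = 2.07e-06), where it had 185 and 207 CPM with siUSP15 and 328 and 353 CPM with siCtrl. Of the genes of the JNK and p38 branches, 2 of 17 rose and 4 fell in KBM7, and 2 of 16 rose and 3 fell in K562 (all genes 13.2% higher and 15.8% lower in KBM7, 6.88% higher and 8.90% lower in K562). Of MYC's partners, 0 of 10 rose and 2 fell in KBM7, and 0 of 9 rose and 1 fell in K562. The 2 in KBM7, MXD1 (-0.57, adjusted p = 4.98e-05) and MXD4 (-0.65, adjusted p = 7.52e-05), encode MAX partners that oppose MYC, and the one in K562 was MYCL (-0.36, adjusted p = 0.00595), a MYC relative. Medians of the 7 related lists lay between -0.19 and -0.02 in KBM7 and between -0.07 and -0.01 in K562, beside 0.00067 and 0.00099 over all genes.

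Markers of cell identity moved with siUSP15 too. In KBM7, 5 of 6 myeloid markers tested rose and 1 fell, and 0 of 5 erythroid markers rose and 3 fell. Over all genes in KBM7, 13.2% rose and 15.8% fell. Summed levels were 259 to 277 CPM in siUSP15 and 226 to 228 CPM in siCtrl libraries for myeloid genes. For erythroid genes they were 28.3 to 29.7 CPM in siUSP15 and 53.2 to 60.4 CPM in siCtrl libraries. In K562 set 1, 7 of 10 heat shock genes and 8 of 13 mitochondrially encoded genes rose, where 18.0% of all genes rose, and in set 2 it was 1 and 1, where 1.19% of all genes rose. Mitochondrially encoded genes took 4.61% to 4.94% of counts in siUSP15 and 4.34% to 4.44% in siCtrl libraries of set 1. In KBM7, 1 of 10 heat shock genes rose, 1 fell and none of 13 mitochondrially encoded genes was called in edgeR (0 at an unadjusted p under 0.05), 1 of 5 lymphoid markers rose and 1 fell, and 2 of 4 stromal and epithelial markers fell. Over both K562 sets, 1 of 8 erythroid and 2 of 2 myeloid markers fell and none of 2 lymphoid or 6 stromal and epithelial markers was called in edgeR (1 and 3 at an unadjusted p under 0.05). Over all genes, 6.88% rose and 8.90% fell there. The sets were unlike for the erythroid markers: 4 of 8 rose and 1 fell in set 1, and 0 rose and 2 fell in set 2. The set 1 effect minus the set 2 effect was called higher for 3 of these 8. Their part in the changes of the 10 genes was not tested.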

How the data were processed

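The authors deposited raw counts per gene for each cell line, made per the submitters' notes with TopHat2 2.1.0 on hg38 and HTSeq; the paper names Itreecount for counting, and the sources name different HiSeq models. The 12 deposited columns of log2 values per library and the authors' fold changes and p-values were not used. In edgeR 4.0.16 (R 4.3.3, limma 3.58.1), low counts were removed by filterByExpr, TMM set the library scaling and a 2-sided quasi-likelihood test gave p-values, which were adjusted by Benjamini-Hochberg over all genes tested and called below 0.05. KBM7 was fitted alone. K562 used a model of set and siRNA (both sets), or 4 groups of set by siRNA (each set and their difference); the line difference used 6 groups over the 12 libraries. CPM are counts over TMM-scaled library sizes, without a length term, so levels are not compared between genes. The 10 members and all lists were chosen with earlier results of these data known.

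Named genes were the 10 members, USP15, the 4 genes of lowest p per related list and line, of which the text uses some, and for FOS, EGR1 and SPRY4 the 3 genes of highest Pearson correlation of log2(CPM + 0.5) in K562, among genes averaging at least 3; DUSP6 was too low there. ERCC1, CASC11 and HCG20 were added after their values were seen. The permutation test used log2(CPM + 0.1). Same-numbered libraries were checked for pairing by the correlation of deviations from the siRNA means: it was 0.59 to 0.75 in K562, where it follows the sets, 0.03 and 0.11 within sets, and -0.0041 in KBM7. Alternatives were RLE size factors, no count filter, DESeq2 1.42.0, a replicate block, no set term, each set alone, the joint fit and each library left out; a library left alone in its group takes the spread of the remaining groups. The fits were tested on simulated data. No libraries were copies of each other. Promoter sequences are from RefSeq. One marker gene is not reported here.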

Additional observations from a re-analysis of the deposited data

Results flagged for a closer look

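The siRNA effect differed between the lines for 4 of the 10 genes by the test of the difference itself (KBM7 effect minus K562 effect, log2): EGR1 -0.51, MYC -0.35, IER3 -1.28 and SPRY4 -0.52. All 4 were lower, where 12.6% of all genes tested were lower and 10.6% higher. The SPRY4 difference was lost without a count filter, in DESeq2 and in some leave-outs. The knockdown of USP15 differed between the K562 sets (set 1 effect minus set 2 effect, log2 -0.32), a call that some leave-outs also lost. Among the 4 K562 siCtrl libraries, IER3 in replicate 4 (23.3 CPM) stood apart from the other 3 (19.4 to 19.6 CPM), with a gap of 0.952 of the group's range. The threshold used for such gaps is passed by chance in about 1 in 20 groups. It was applied to USP15 and each of the 10 genes in both K562 siRNA groups, so a gap passing by chance is to be expected. These groups also pool the K562 sets.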

How the results depend on the processing

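Of the values per gene under all alternatives, 832 kept their side of the threshold, 13 passed it newly and 29 lost it. Among values called in the main or the alternative fit, 0 changed direction. Values called in neither were counted as kept whatever their sign, and some changed sign, such as DUSP5 in set 2 (-0.22 to 0.35 in the leave-outs). DESeq2 called 3 members and 2556 genes in KBM7 (edgeR 5 and 4345) and 1099 genes in the difference between sets (edgeR 1784). Without a count filter, set 2 gave 639 genes (335 with it), as 363 higher and 276 lower (164 and 171 with it). Set 1 then split into 2999 higher and 2110 lower (2475 and 2569 with the filter), and the difference between sets into 1530 and 772 (949 and 835 with it), against 687 and 412 in DESeq2. Without a set term, K562 gave 0 members and 0 genes (2 and 2167 with it; 1 member and 1447 genes at an unadjusted p under 0.05), and USP15 was not called either (-0.93, adjusted p = 0.183); DESeq2, run only with the set term, called 2 members and 1984 genes. The replicate block in place of the set gave 1022 genes in K562, with both members kept, JUN at adjusted p = 0.0223 and EGR1 at 0.00914, and changed no call of a member in KBM7 (5 members, 4330 genes).

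Leaving out 1 library gave 3 to 5 members and 2214 to 5129 genes in KBM7 (3 members without either siCtrl library), 2 to 4 and 3042 to 5247 in set 1, 0 to 2 and 36 to 541 in set 2, 2 to 4 and 555 to 2639 over both sets, 0 to 1 and 435 to 2774 for the difference between sets, 3 to 4 and 2657 to 3910 for the difference between lines, and 7 to 7 and 6795 to 8026 for set 2 against set 1. In KBM7, 2214 and 2651 genes were called without siCtrl replicates 1 and 2. In set 2, 0 members were called without siCtrl replicate 4, and the genes numbered 36 and 53 without siCtrl replicates 3 and 4, 95 without siUSP15 replicate 4, 194 and 183 without siCtrl replicates 1 and 2, and 541 and 512 without siUSP15 replicates 1 and 2. Over both sets they numbered 820 and 1344 without siUSP15 replicates 1 and 2, and 860 and 555 without siCtrl replicates 1 and 2. Other calls that moved were JUN in KBM7 without a filter (-0.31, adjusted p = 0.0198), MYC over both K562 sets without a filter (0.15, adjusted p = 0.0099), DUSP5 in set 1 without a filter (-0.37, adjusted p = 0.037), and the SPRY4 line difference without a filter (adjusted p = 0.0568) or in DESeq2 (0.0733). The lowest counts of the 10 genes where tested were 46 to 77 per library for SPRY4 in KBM7 and 30 to 63 for FOSB in set 1.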
